A study of Mus musculus with 38 samples.

Results

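The genes described here are 30 pancreatic acinar secretory genes, which encode the digestive enzymes, their cofactors and the granule and endoplasmic reticulum (ER) proteins of the exocrine pancreas, as they were measured in spleen RNA of mice. They were grouped with earlier results of these same arrays in view, so their levels and their coexpression are given as a description and without a test. For each gene the probe of highest mean deposited intensity over the 38 arrays was taken. A named probe was found for 29 of the 30 genes, out of 17411 genes with a named probe in all, and all 29 passed the filter on dim probes. Pnlip, the gene of pancreatic lipase, had no named probe and is not described further by level. Spink3 was found under its current symbol Spink1.

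Each of the 38 arrays held spleen RNA of a different BXD strain, a recombinant inbred line descended from C57BL/6 and DBA/2 mice in which each locus is fixed for one parental allele or the other. The 3 arrays of BXD18, BXD38 and BXD96 were labelled female and the other 35 male. Every array was hybridised with equal parts of RNA from 2 mice aged 8 to 12 weeks, so within-strain variation was not measured. The labels call the samples control spleens and name no treatment, transgene or allele beyond the strain.

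Acinar cells are the enzyme-making cells of the exocrine pancreas. They fill zymogen granules with inactive precursors of proteases together with active amylase, lipases and ribonuclease, and release them into the duct when a meal arrives. A trypsin inhibitor travels in the same granules, and a factor complex of Ptf1a and Rbpjl, called PTF1, drives many of the enzyme genes. The tail of the pancreas lies against the spleen in the mouse.

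Expression is given as log2 intensity after background correction and quantile normalization, in which 15.94 was the highest value that any probe reached. Different probes bind with different strength, so the level of one gene is not compared with that of another. The median SD across the 38 arrays was 3.90 for the 29 members, against 0.288 for the 17583 probes that passed the filter. The mean of the 29 members, called the member mean below, was 5.62 on the lowest array (BXD66), 8.79 at the median and 15.06 on the highest (BXD28). The low end depends on the background correction: the lowest member mean was 7.81 with the detection p-values as deposited and 7.93 in the authors' processed table. The member mean lay below 9 on 20 arrays, and the other 18 had 9 or more. In bulk RNA such as this, fewer cells of a type and less RNA per cell cannot be told apart.

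Markers of spleen cells were present on every array. The B cell gene Cd79a ran from 12.23 to 13.79, the T cell gene Cd3e from 11.53 to 13.27 and the red pulp macrophage gene C1qa from 11.10 to 11.81, each detected on all 38 arrays. The number of probes detected per array ran from 13791 to 15732. It had r = -0.09 and rho = -0.16 with the member mean (r = -0.01 without the 2 arrays farthest from the median). One array stood apart between the deposited tables: after centring each probe, BXD12 had r = 0.509 with its own column of the authors' processed table, whereas the lowest of the other arrays had r = 0.810. All 38 arrays matched their own column best on that measure, and BXD12 stood among the others in the table used here.

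**Figure D1:**
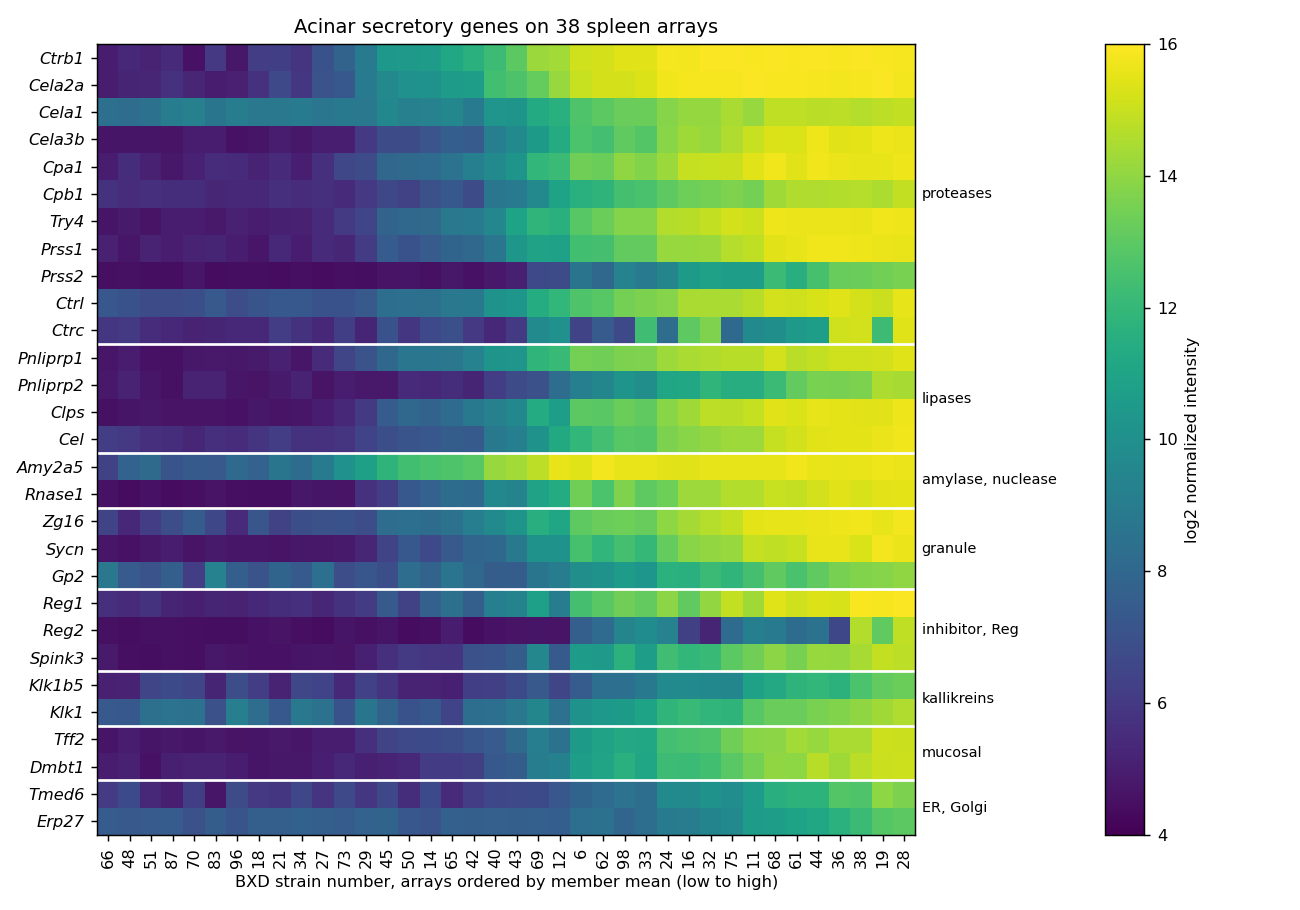
Normalized log2 intensity of 29 acinar secretory genes (rows, grouped by role) on 38 spleen arrays (columns, ordered by the mean of the 29 genes from BXD66 at 5.62 to BXD28 at 15.06). Nearly all rows brighten from left to right; Ctrc and Reg2 are broken by dark cells on the right.

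The members varied together. Over the 406 pairs of members the median Pearson r across the 38 arrays was 0.947 and the median Spearman rho 0.924, with r between 0.620 and 0.998 and at least 0.9 in 282 pairs. When each member was set against the mean of the other 28, r was at least 0.95 for 20 members. All members share the same 38 RNA pools and the same normalization, so these correlations describe the arrays and carry no p. The deviation of a member was taken as its residual from a rising curve (isotonic regression) on the mean of the others. Its SD was 0.144 at the median and under 0.2 for 18 members. The 11 with a larger SD are described below with the rest of their group, and they include Ctrc (1.25), Reg2 (0.794), Klk1 (0.542) and Gp2 (0.526).

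Promoter sequence was at hand for 23 of the 30 members, from the RefSeq table of assembly GRCm38.p6, as the 250 bases before the annotated start. The 6 shown carry the 3 motifs in capitals in several combinations, of which Prss1 and Cela1 have the same one. All 6 genes are described below. Capitals mark the E-box CACCTG, the letters TTTCCC of a TC-box and the TATA-box letters TATAAA, each also where its reverse complement stands because the motif lies on the opposite strand. The E-box and the TC-box are the 2 half-sites that PTF1 is known to bind. Cel, whose product hydrolyses lipid esters, lies at chr2:28563404-28563653 (minus strand); Prss1, a trypsinogen, at chr6:41458680-41458929 (plus strand); and Cela1, a chymotrypsin-like elastase, at chr15:100687921-100688170 (minus strand). Amy2a5, pancreatic amylase, lies at chr3:113258700-113258949 (minus strand), and the neighbouring regenerating-protein genes Reg1 and Reg2 at chr6:78425733-78425982 (plus strand) and chr6:78404905-78405154 (plus strand).
Cel: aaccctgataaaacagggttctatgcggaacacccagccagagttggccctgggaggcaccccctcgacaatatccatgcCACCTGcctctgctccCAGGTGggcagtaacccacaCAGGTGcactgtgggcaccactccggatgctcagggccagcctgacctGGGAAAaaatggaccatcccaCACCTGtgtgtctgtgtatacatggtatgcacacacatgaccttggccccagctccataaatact
Prss1: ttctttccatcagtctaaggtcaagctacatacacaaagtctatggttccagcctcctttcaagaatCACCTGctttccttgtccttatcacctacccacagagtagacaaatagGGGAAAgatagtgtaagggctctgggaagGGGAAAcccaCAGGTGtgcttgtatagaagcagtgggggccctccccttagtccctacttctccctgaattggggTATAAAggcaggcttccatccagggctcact
Cela1: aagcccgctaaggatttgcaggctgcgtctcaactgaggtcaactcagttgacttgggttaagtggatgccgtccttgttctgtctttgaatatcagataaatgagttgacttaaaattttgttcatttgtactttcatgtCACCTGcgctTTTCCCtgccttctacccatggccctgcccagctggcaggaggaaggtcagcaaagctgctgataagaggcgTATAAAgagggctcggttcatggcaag
Amy2a5: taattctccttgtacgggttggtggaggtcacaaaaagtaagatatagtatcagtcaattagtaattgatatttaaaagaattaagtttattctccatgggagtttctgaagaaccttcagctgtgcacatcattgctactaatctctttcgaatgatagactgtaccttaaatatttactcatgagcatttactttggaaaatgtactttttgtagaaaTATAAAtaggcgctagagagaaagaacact
Reg1: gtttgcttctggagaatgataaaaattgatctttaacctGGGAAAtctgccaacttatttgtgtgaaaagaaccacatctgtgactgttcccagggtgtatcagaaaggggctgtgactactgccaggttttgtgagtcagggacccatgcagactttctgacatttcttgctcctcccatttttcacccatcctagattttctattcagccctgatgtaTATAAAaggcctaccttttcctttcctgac
Reg2: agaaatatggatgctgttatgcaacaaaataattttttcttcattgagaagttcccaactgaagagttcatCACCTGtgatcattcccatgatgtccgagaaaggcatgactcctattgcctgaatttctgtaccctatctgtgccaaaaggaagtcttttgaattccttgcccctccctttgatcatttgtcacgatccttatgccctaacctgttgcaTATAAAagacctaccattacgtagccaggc

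CACCTG was found in 14 of the 23 member promoters (60.9%), against 17.1% of 27025 promoters of the same length. TTTCCC was found in 8 (34.8%), against 21.9%, and TATAAA in 9 (39.1%), against 12.97%. Both CACCTG and TTTCCC stood in 5 member promoters (21.7%), those of Cel, Cela1, Cela2a, Prss1 and Prss2, against 3.63% of all promoters. A second E-box form, CAGCTG, which reads the same on both strands, was in 4 (17.4%), against 12.8%, and CAAGGT was in 8 (34.8%), against 10.8%. All motifs were searched on both strands, hits of different motifs shared a base in 0 places, and a match is a run of letters, not a measured binding site. Cel had CACCTG 4 times and Prss1 had it 2 times in the window. The windows of Prss1 and Try4 were identical at 55.6% of positions without gaps. In both, a CACCTG began 96 bases before the start. The counts above take such gene copies as separate promoters. The Amy2a5 window held CAGCTG and TATAAA but neither CACCTG nor TTTCCC. The windows of Reg1 and Reg2 were identical at 36.4% of positions without gaps. TATAAA began 30 bases before the start in both, while CACCTG stood in Reg2 alone of the pair and TTTCCC in Reg1 alone.

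The proteases formed the largest role group, with 11 genes. Ctrb1, chymotrypsinogen, was at 4.57 on the lowest array (BXD70), 12.61 at the median and 15.94 on the highest (BXD32). Its deposited intensity ran from 77.8 on BXD66 to 66844 on BXD44. Cela2a, an elastase, was at 4.93 on the lowest, 12.49 at the median and 15.94 on the highest array. These 2 genes levelled off: on the 12 arrays of highest member mean Ctrb1 stayed between 15.79 and 15.94 and Cela2a between 15.76 and 15.94. Whether the reading range of the scanner limits these values was not tested. The trypsinogen genes Try4 and Prss1 ran from 4.65 to 15.74 and from 4.72 to 15.76, with r = 0.989 and r = 0.996 with the mean of the others. Trypsinogen genes are near-identical copies in one cluster, so a probe may also bind transcripts of its relatives.

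Prss2, another trypsinogen, was at 4.38 on the lowest array, 4.93 at the median and 13.57 on the highest, and was detected on 18 arrays. It was at 5.06 or below on each of the 20 arrays with a member mean under 9 and at 6.63 or above on the other 18. The carboxypeptidases Cpa1 and Cpb1, which trim single residues from peptide ends, ran from 4.79 to 15.74 and from 5.29 to 14.90. Ctrl, a chymotrypsin-like protease, was detected on all 38 arrays, at 6.72 on the lowest and 15.54 on the highest. Cela3b ran from 4.61 to 15.71. Cela1 had a narrower range, 8.29 to 14.88, and was also detected on every array, including those where Try4 was not.

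Second probes of 3 members gave a partial check. The other Cela3b probe followed the first with r = 0.999 (rho = 0.977). The other Prss1 probe had r = 0.911 and rho = 0.905 with the first, and departed furthest on BXD24, at 2.28 above its curve on the other members. The other Erp27 probe was detected on 3 arrays and had r = 0.837 and rho = 0.560 with the first.

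The lipase group had 4 measured members. Cel was at 5.30 on the lowest array (BXD70), 9.01 at the median and 15.76 on the highest (BXD28), with r = 0.997 and rho = 0.969 with the mean of the other members. Clps, colipase, which anchors pancreatic lipase to fat droplets, was at 4.56 on the lowest, 9.40 at the median and 15.69 on the highest array. Pnliprp1, a lipase-related protein, ran from 4.56 to 15.43 with a median of 10.24. Pnliprp2, a lipase that also splits phospholipids and galactolipids, ran from 4.55 to 14.51 with a median of 6.47. The 4 were thus low on the same arrays and high on the same arrays, and their deviations had SDs between 0.082 and 0.186.

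Amy2a5 departed in shape, in a way that Ctrb1 and Cela2a partly shared. It was at 6.31 on the lowest array (BXD66), 14.24 at the median and 15.77 on the highest (BXD62), and was detected on all 38. On the 12 arrays of lowest member mean it already ran from 6.31 to 10.08. Ctrb1 ran from 4.57 to 7.80 and Cela2a from 4.93 to 7.31 on those arrays. Sycn, a granule protein gene, was not detected there and ran only from 4.59 to 4.97. On the 12 arrays of highest member mean Amy2a5 was flat, between 15.45 and 15.74, while Sycn ran from 13.15 to 15.77. Whether the reading range of the scanner limits it there was not tested either. Its r with the mean of the others was 0.898 (rho = 0.917), and its r with Ctrb1 was 0.989 (rho = 0.892; r = 0.988 without the 2 farthest arrays). The SD of its deviation from a rising curve was 0.269. Amylase genes are also a cluster of near-identical copies, so the probe may read more than one of them.

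Amy1, the salivary and liver form of amylase, was not a member. It was detected on 9 arrays and ran from 4.49 to 8.52, with r = 0.719 with the member mean. Rnase1, pancreatic ribonuclease, had the more usual shape: 4.40 on the lowest array, 9.48 at the median and 15.499 on the highest, with r = 0.990.

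**Figure D2:**
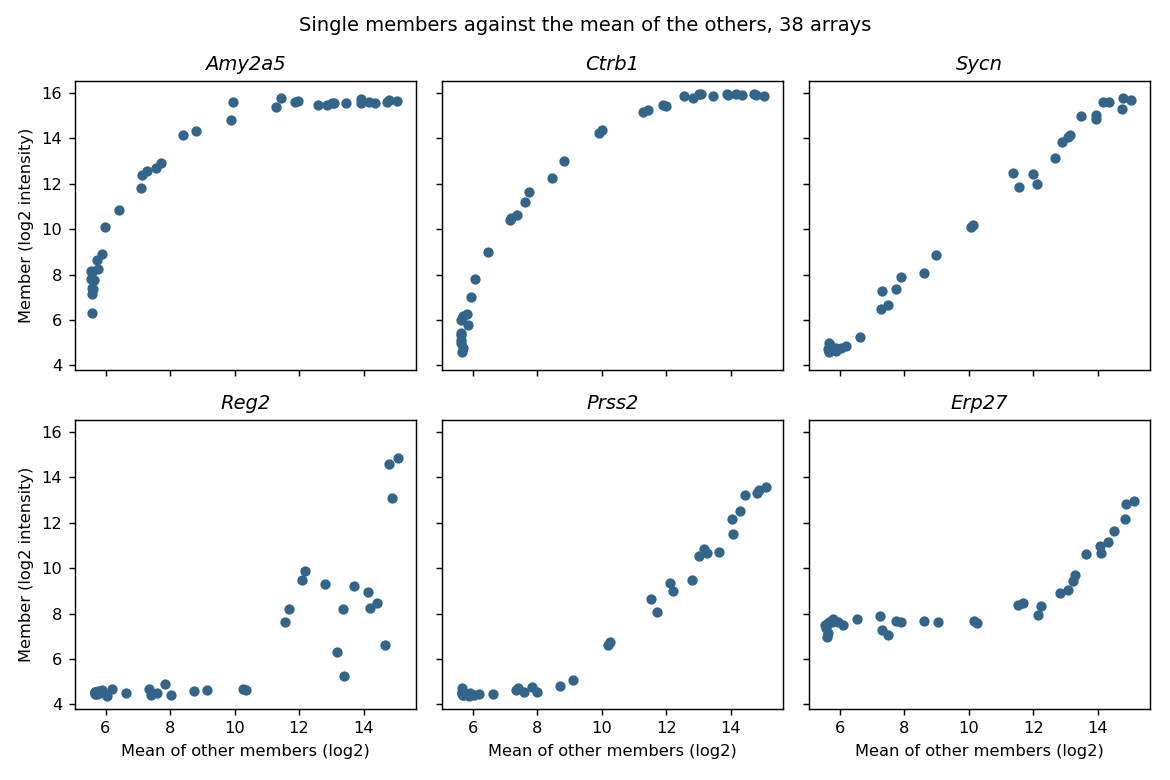
Normalized log2 intensity of 6 members (vertical axis) against the mean of the other 28 members (horizontal axis), 1 point per array, 38 arrays. Amy2a5 and Ctrb1 climb early and level off near the top of the scale, Sycn is close to straight, Prss2 and Erp27 stay low until the mean of the others is high, and Reg2 scatters at the right.

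Among the granule and membrane genes, Sycn (syncollin, a protein of the zymogen granule membrane) was at 4.59 on the lowest array, 8.47 at the median and 15.77 on the highest, with r = 0.997. Zg16, a lectin-like protein of the granule membrane, was at 5.33 on the lowest, 9.98 at the median and 15.79 on the highest array. Its deviation had an SD of 0.339. Gp2, the main glycoprotein of the granule membrane, was detected on all 38 arrays, at 6.19 on the lowest (BXD70), 8.69 at the median and 14.02 on the highest (BXD28). At the low end it did not follow the others: BXD83 had 9.30 at a member mean of 5.66, 1.70 above its curve, and BXD70 had 6.19 at a member mean of 5.65.

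The inhibitor and regenerating-protein genes split. Spink3, the trypsin inhibitor that is packed with trypsinogen, was at 4.44 on the lowest array, 7.26 at the median and 14.88 on the highest, with r = 0.992. Reg1 was at 5.05 on the lowest, 9.14 at the median and 15.94 on the highest array, with r = 0.993. Both belong with the enzymes in their order over arrays. Their deviations had SDs of 0.289 and 0.303, and were lowest on BXD12 and highest on BXD69 for both. Reg2, the neighbour of Reg1 on chromosome 6, was detected on 15 arrays and had r = 0.800 and rho = 0.830.

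Reg2 was at 4.39 on the lowest array, 4.67 at the median and 14.87 on the highest. It reached 14.87 on BXD28, 14.60 on BXD38 and 13.07 on BXD19, the 3 arrays of highest member mean. On BXD36, next below them, it was at 6.61, and on BXD32 and BXD16 at 5.26 and 6.29, although their member means were 14.40, 13.11 and 12.94. BXD33, with a lower member mean of 12.11, had 9.85. Reg1 was at 15.29, 14.06 and 13.07 on BXD36, BXD32 and BXD16. On BXD16 Reg1 was also below its level on BXD98, BXD33 and BXD24 (13.42, 13.13 and 13.91), whose member means of 12.01, 12.11 and 12.68 were lower. The deviations of the 2 genes had r = 0.194. Among the 20 genes whose levels followed the Reg2 deviation most closely over the 18 arrays with a member mean of at least 9, 1 lay on chromosome 6, which holds 5.16% of the named probes kept. The regenerating genes Reg3a and Reg3b, which are no members and are known as genes induced in injured pancreas, had their highest values on BXD38 (12.66 and 12.54).

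Tff2 and Dmbt1 are better known from mucosal surfaces: Tff2 encodes a trefoil peptide of the stomach mucus and Dmbt1 a scavenger-receptor protein of epithelia. Both followed the enzymes closely. Tff2 was at 4.62 on the lowest array, 7.80 at the median and 15.06 on the highest, with r = 0.997 and rho = 0.976. Dmbt1 was at 4.58 on the lowest, 7.42 at the median and 15.09 on the highest array, with r = 0.992 and rho = 0.954. Of 14 other mucosal genes with a probe, 4 passed the filter. Muc1, a membrane mucin, ran from 4.92 to 9.87 and had r = 0.824 with the member mean. Pigr, Vil1 and Agr2 had r = 0.171, 0.125 and -0.11, over ranges of 1.20, 1.23 and 1.18.

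The ER and Golgi members were Erp27 and Tmed6. Erp27, a disulfide isomerase-like protein, was at 6.96 on the lowest array (BXD70), 7.72 at the median and 12.96 on the highest (BXD28), and was detected on all 38 arrays. It stayed between 6.96 and 7.88 on all 20 arrays with a member mean under 9. Tmed6, a cargo-transport protein, was at 4.71 on the lowest array (BXD83), 6.70 at the median and 13.97 on the highest (BXD19). It differed between arrays of like member mean at the low end, with 6.75 on BXD96 at a member mean of 5.68, while BXD83 had a member mean of 5.66. Its r with the other members was 0.919 (rho = 0.868).

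General genes of the secretory pathway gave a different picture. Of 25 such genes, 24 had a named probe and 22 passed the filter, and their mean ran only from 10.09 to 10.56. That mean had r = -0.02 and rho = -0.06 with the member mean (r = -0.17 without the 2 farthest arrays). The highest single values were for Sel1l, of ER-associated degradation (r = 0.564, range 1.73), and P4hb, a protein disulfide isomerase (r = 0.535, range 1.06), both highest on BXD19. Hspa5, the main ER chaperone, had r = 0.143, and Xbp1, a factor of the unfolded protein response, had r = -0.002. The 3 with the widest ranges were Sec61g (2.19), Sec61b (1.99) and Hspa5 (1.96). Spleen plasma cells use the same pathway, and how much of these signals came from which cells was not tested.

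Ctrc, chymotrypsin C, which cleaves trypsinogen and trypsin, ran on 2 tracks. It was at 5.16 on the lowest array (BXD70), 6.65 at the median and 15.39 on the highest (BXD28), with r = 0.837 and rho = 0.851. BXD32 and BXD75 had nearly the same member mean, 13.11 and 13.18, but Ctrc was at 13.66 on BXD32 and at 8.12 on BXD75. Its deviation from the curve ran from -2.69 on BXD75 to 3.26 on BXD33.

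The genes whose levels followed the Ctrc deviation were looked up after its values were seen. Over the 18 arrays with a member mean of at least 9, 6 of the 20 named genes with the strongest correlation lay on chromosome 4, the chromosome of Ctrc, which holds 5.83% of the named probes kept. Prss1 came near this, with 5 of 20 on its own chromosome 6 over the same arrays. Over all 38 arrays the count for Ctrc was 5 of 20, and Tff2 also had 5 of 20, on chromosome 17 (4.87% of the probes). For Ctrc the 6 were Iffo2 (r = -0.88), Casp9 (r = -0.83), Necap2 (r = -0.80), Tmem82 (r = 0.797), Aldh4a1 (r = -0.80) and Padi2 (r = -0.76). Between Ctrc and Casp9, the initiator caspase of the mitochondrial death pathway, the gene table of GRCm38.p6 places 1 protein-coding gene, Cela2a. Casp9 itself had 2 separate levels, 4.73 to 5.75 on 17 arrays and 8.42 to 8.81 on 21. Necap2, with 24 protein-coding genes between it and Ctrc, was on the same side as Casp9 on 37 of the 38 arrays.

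Among the 18 arrays with a member mean of at least 9, the 8 with lower Casp9 had Ctrc at 9.75 on the lowest (BXD69), 13.33 at the median and 15.39 on the highest (BXD28). The 10 with higher Casp9 had Ctrc at 6.47 on the lowest (BXD6), 9.003 at the median and 12.23 on the highest (BXD19). The 2 ranges overlap. Read against the mean of the other members, every array of lower Casp9 lay on or above the curve (deviations 0 to 3.26) and every one of higher Casp9 below it (-2.69 to -0.088). Casp9 was picked for its r with these same deviations on these 18 arrays, so the separation follows in part from that choice. On the 20 arrays with a member mean under 9, where Ctrc was dim, the ranges were 5.16 to 7.01 with lower Casp9 and 5.26 to 6.05 with higher Casp9. The Ctrc deviations on those 20 arrays overlapped, from -0.34 to 0.740 with lower Casp9 and from -0.91 to 0.517 with higher Casp9. Cela2a, which stands between the 2 genes, cannot be read for a split where Ctrc has one, because 12 of the 18 arrays are those on which it levelled off. On the 20 arrays with a member mean under 9, where it had not, its deviations overlapped, from -0.36 to 0.362 with lower Casp9 and from -0.25 to 0.481 with higher Casp9. Under all 4 other normalizations the median of Ctrc on these 18 arrays was higher with lower Casp9. With the detection p-values as deposited the medians were 13.28 and 8.66. The ranges overlapped under each of them, at 9.15 to 15.38 and 7.84 to 12.12 with the p-values as deposited. Deviations from the curve were not read by Casp9 level there. Whether the probe's target sequence differs between the parental strains was not tested.

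**Figure D3:**
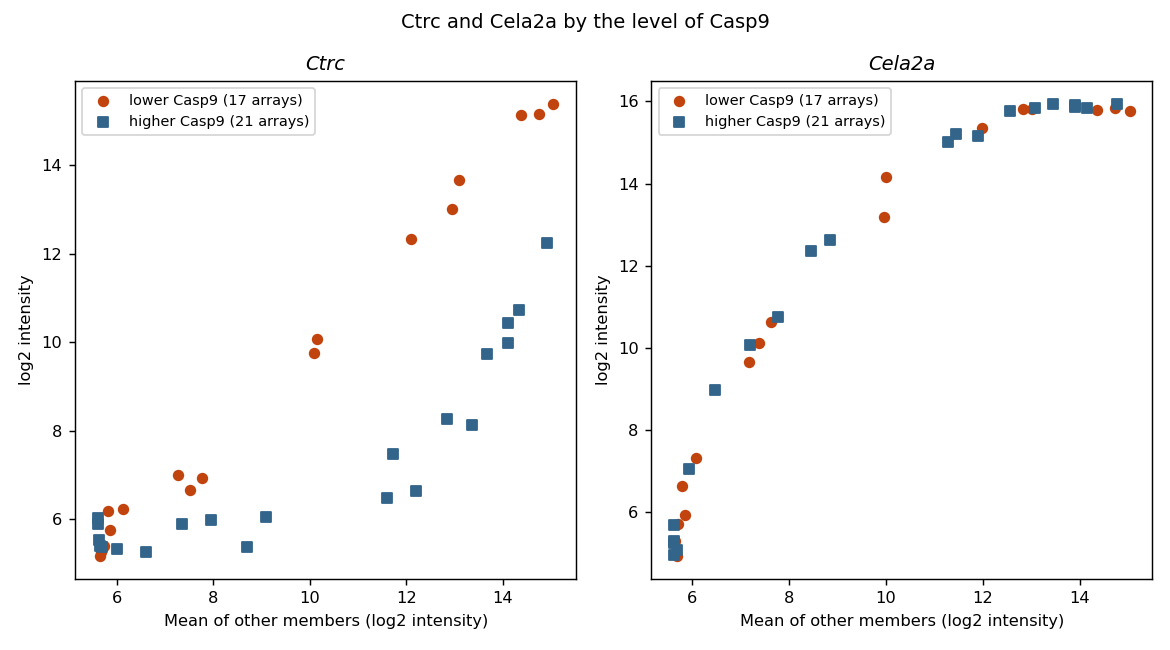
Normalized log2 intensity of Ctrc (left) and Cela2a (right) against the mean of the other 28 members, 1 point per array. Circles are the 17 arrays with lower Casp9 and squares the 21 with higher Casp9; for Ctrc the circles run above the squares at like means over most of the range, while Cela2a lies between 15.76 and 15.94 on the 12 arrays of highest member mean, where it has levelled off and a split could not be seen.

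The kallikreins Klk1 and Klk1b5, serine proteases of the glandular kallikrein cluster on chromosome 7, parted at the low end. Klk1 was detected on all 38 arrays, at 6.42 on the lowest (BXD65), 8.80 at the median and 14.55 on the highest (BXD28). Klk1b5 was detected on 30 arrays, at 5.03 on the lowest (BXD65), 6.70 at the median and 13.31 on the highest (BXD28). They had r = 0.993 with each other (rho = 0.986; r = 0.993 without the 2 farthest arrays), and their deviations had r = 0.947. No protein-coding gene lies between them in GRCm38.p6, and members of this cluster are close copies, so their probes may share targets.

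Over all 38 arrays, 12 of the 20 named genes that followed the Klk1 deviation most closely lay on chromosome 7, which holds 8.09% of the named probes kept, and the count for Klk1b5 was also 12 of 20. Over the 18 arrays with a member mean of at least 9 the counts were only 2 of 20 for Klk1 and 3 of 20 for Klk1b5. Over all 38 arrays the first for Klk1 were Klk1b21 (r = 0.685), Car11 (r = -0.63), Fcgrt (r = -0.60) and Clec11a (r = -0.59), and Siglecg, an inhibitory receptor of B cells, had r = 0.567. Siglecg had 2 levels, 8.58 to 9.32 on 16 arrays and 10.25 to 11.14 on 22. On the 20 arrays with a member mean under 9, the 7 with lower Siglecg had Klk1 at 6.42 on the lowest, 7.02 at the median and 7.33 on the highest. The 13 with higher Siglecg had Klk1 at 7.32 on the lowest (BXD21), 8.46 at the median and 9.12 on the highest (BXD96). Klk1b5 ran from 5.03 to 5.39 on the 7 and from 5.21 to 6.83 on the 13, with BXD21 again lowest of the 13. It was not detected on any of the 7 or on BXD21, so its values there are background readings. The 2 sets of arrays overlapped through BXD21 alone.

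On the 18 arrays with a member mean of at least 9 the gap was smaller: deviations of Klk1 ran from -0.50 to 0 on 9 arrays with lower Siglecg and from 0 to 0.502 on 9 with higher Siglecg. Those of Klk1b5 overlapped, from -0.40 to 0 with lower Siglecg and from -0.30 to 0.405 with higher Siglecg. For both genes the lowest value with lower Siglecg was BXD12 and the highest with higher Siglecg BXD69. These arrays had member means of 10.15 and 10.07 and deviations of equal size and opposite sign, and BXD12 stood apart between the deposited tables. The pair was not particular to the kallikreins. BXD12 was also lowest and BXD69 highest in deviation for Spink3 (-1.07 and 1.07), Reg1 (-0.83 and 0.831), Tff2 (-0.34 and 0.341) and Clps (-0.33 and 0.330), all on other chromosomes. Siglecg and the genes named with it were chosen after the values were seen. The gene table places 41 protein-coding genes between Klk1 and Siglecg, against 5 between Klk1 and Clec11a. The size of the split depends on the background correction: with the detection p-values as deposited, Klk1 ran from 7.835 to 7.95 on the 7 arrays and from 7.94 to 8.60 on the 13. Klk1b5 then ran from 7.756 to 7.773 on the 7 and from 7.765 to 7.876 on the 13.

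**Figure D4:**
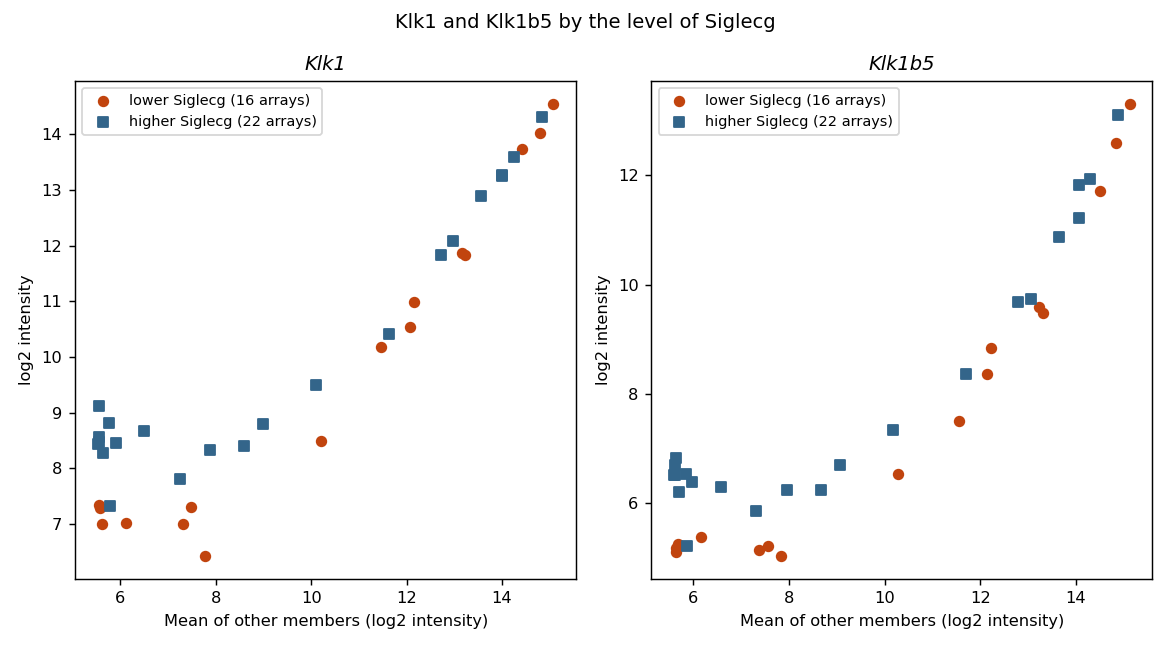
Normalized log2 intensity of Klk1 (left) and Klk1b5 (right) against the mean of the other 28 members, 1 point per array. Circles are the 16 arrays with lower Siglecg and squares the 22 with higher Siglecg; the 2 kinds are apart at low means, save for BXD21, and close at high means.

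Other genes of the exocrine pancreas moved with the members. Of 30 further acinar secretory genes, 19 had a named probe and 14 passed the filter, which a gene seen only on the arrays of high member mean can pass only through them. The closest were Pla2g1b, a secreted phospholipase (r = 0.982, 4.51 to 14.86), and Cuzd1, a zymogen granule protein (r = 0.971, 4.34 to 13.87). The acinar factors Ptf1a and Rbpjl, the 2 named parts of PTF1, had r = 0.890 and 0.884. Ptf1a was at 4.59 on the lowest array, 5.37 at the median and 11.73 on the highest, and Rbpjl at 5.04, 5.71 and 12.41. Foxa3, a forkhead factor of endoderm, had r = 0.825, and Bhlha15 (Mist1), a factor of secretory cells that plasma cells also express, had r = 0.756. Gata4 and Gata6, by contrast, had r = 0.017 and 0.043.

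Over the 11135 named genes outside the group, 20 had r of at least 0.8 with the member mean over the 38 arrays, and the median was -0.07. Following Pla2g1b and Cuzd1, and headed by 2210010C04Rik on chromosome 6 (r = 0.984, rho = 0.953), were Agbl5 (0.955), Klk1b26 (0.923), Nr2c2 (0.922), Cabp2 (0.911) and Serpini2 (0.894), a pancreatic serpin. Ptf1a, Krt28 (0.885), Rbpjl, Reg3d (0.883), Klk1b27 (0.849), Aqp12 (0.848) and C8g (0.848) completed the first 15. Aqp12 encodes an aquaporin of acinar cells. Agbl5 and Nr2c2 kept to narrow ranges, 5.21 to 7.49 and 4.55 to 7.04. At the opposite end stood Pkp4 (-0.83), C1rl (-0.79), Atp5b (-0.79), Sec23b (-0.77) and Ethe1 (-0.77).

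Markers of other pancreatic cells varied in how far they followed the members. Of 10 duct genes with a probe 7 passed the filter, and Krt8 (4.57 to 10.06, r = 0.768) and Krt18 (5.08 to 8.99, r = 0.735), keratins of simple epithelia, were highest on BXD28. Car2, whose range of 4.28 was wider than that of Krt18 (3.91), had r = 0.019. Sox9 had r = 0.506, while Krt19, Krt7 and Cldn4 had r = 0.008, -0.042 and 0.154. Of 11 islet genes with a probe 3 passed the filter. Ins2, insulin, was at 5.15 on the lowest array, 5.99 at the median and 9.87 on the highest (BXD28), with r = 0.624 (rho = 0.511). Gcg, glucagon, was detected on 3 arrays and Iapp had r = 0.305.

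Adipose genes, which could come from fat around the organ, showed no such relation. The mean of 6 adipose genes ran from 5.78 to 9.16 with r = -0.13 and rho = -0.13, led in range by Car3 (6.20), Adipoq (5.70) and Cidec (4.15), all highest on BXD96, an array at the low end of the member mean. The capsule and mesothelium list, which shares Krt8, had r = 0.382 (rho = 0.365), with the widest ranges in Krt8 (5.49), Col1a2 (2.55) and Upk3b (2.19). Of its 10 measured genes, 1 had r of at least 0.5, Krt8 (0.768). For the rest, r ran from -0.48 (Msln) to 0.057 (Col3a1). Among spleen lists the mean of 7 B cell genes had r = -0.37, that of 8 T cell genes r = -0.25, that of 7 red pulp genes r = -0.36 and that of 5 erythroid genes r = 0.062. The widest ranges were in Pax5 (2.07), Cd79a (1.56) and Cd22 (1.29) for B cells and in Cd3d (2.09), Cd3e (1.74) and Cd247 (1.74) for T cells. They were in Hmox1 (1.73), C1qc (1.22) and C1qb (1.16) for the red pulp and in Klf1 (5.35), Slc4a1 (3.86) and Tfrc (3.18) for erythroid cells. What part of the lower lymphoid values goes with the higher members was not tested.

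The series sets spleen expression against 3 immune traits measured by flow cytometry, on the natural log scale, in 34 of the strains. LN MHC Med describes how much MHC class II the B cells carried (as a median), LN T:B the ratio of T to B cells and LN CD4:CD8 the ratio of helper to cytotoxic T cells. Each slope below is the log2 change per 1 SD of the trait in a limma fit over all 17583 probes kept, with Benjamini-Hochberg adjustment over all of them. For LN MHC Med, 0 of the 29 members were called at an adjusted p under 0.05, when 0.233% of all probes were (41 of 17583). An unadjusted p under 0.05 was found for 1 of 29 members, against 983 of all probes (5.59%), so the members' share was no higher than the background. All 29 slopes were positive, with a median of 1.11 and a median SE of 0.627, against a median of -0.003 over all probes. The 29 slopes come from the same arrays and from genes that vary together, so they are not 29 separate results. They ran from 0.273 ± 0.294 (SE, n = 34) for Erp27 to 1.28 ± 0.704 for Cela3b. Zg16 had a slope of 1.23 ± 0.602 and an adjusted p of 0.860.

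For LN T:B, 0 of 29 members were called by limma, with a background of 0.148% (26 of 17583). An unadjusted p under 0.05 was found for 3 of 29, against 2209 of all probes (12.6%), again no higher than the background. The slopes were all positive, with a median of 1.19, a median SE of 0.623 and a median over all probes of -0.002. Zg16 had the smallest adjusted p, 0.375, at 1.30 ± 0.598 (SE, n = 34), followed by Ctrl at 1.11 ± 0.540 and Cela1 at 0.834 ± 0.409. Without the 2 strains farthest from the median of the trait, BXD98 and BXD14, the median member slope was 1.92; 0 members were called, with a smallest adjusted p of 0.620 in limma, and 21 of 29 had an unadjusted p under 0.05, against 1203 of all 17583 probes. Of the other lists 1 gene was called, Herpud1 of the ER list, which was lower with a higher ratio (-0.29 ± 0.061, adjusted p = 0.045 in limma).

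For LN CD4:CD8, 0 of 29 members were called by limma and 0 had an unadjusted p under 0.05; over all probes 0% were called, and 1832 had an unadjusted p under 0.05. The slopes had a median of 0.058 with a median SE of 0.651, 21 positive and 8 negative. Ctrc had the highest, 0.451 ± 0.548 (SE, n = 34), and Cela1 the lowest, -0.07 ± 0.433. All 29 slopes were smaller than their SE, and slopes of that size were not detectable with 34 strains.

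**Figure D5:**
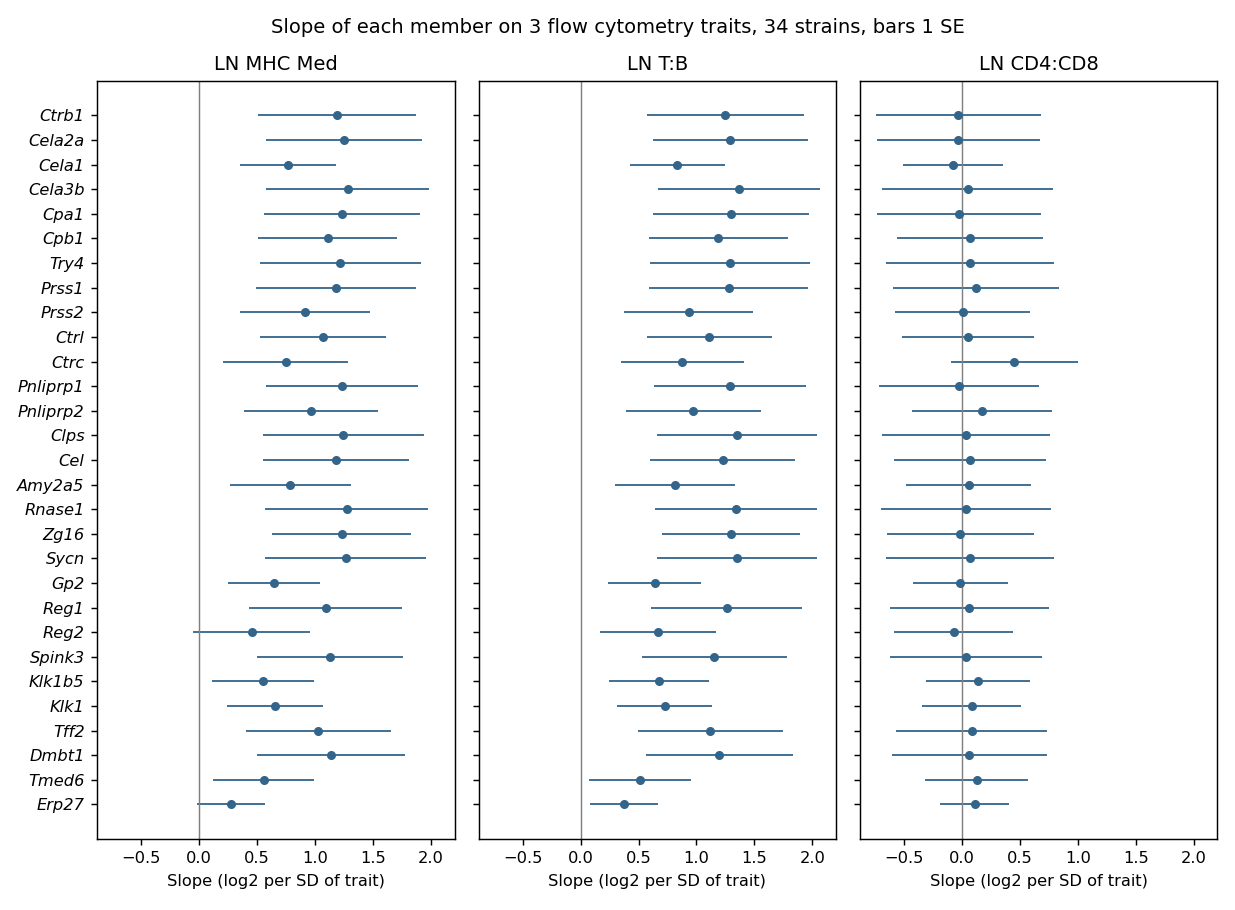
Slope of each of 29 members (rows, by role) on LN MHC Med, LN T:B and LN CD4:CD8, in log2 intensity per SD of the trait over 34 strains; points are limma estimates and bars 1 SE. The slopes on the first 2 traits all lie right of 0, with medians of 1.11 and 1.19, and those on the third lie about 0; none was called.

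By labelled sex, 0 of 29 members were called by limma, when 0.307% of all probes were (54 of 17583), and 0 had an unadjusted p under 0.05. The female arrays lay at both ends: the member mean was 5.72 on BXD18, 14.77 on BXD38 and 5.68 on BXD96, against 5.62 on the lowest, 8.99 at the median and 15.06 on the highest male array. Ctrb1 was at 6.16, 15.94 and 4.75 on these female arrays, against 4.57, 12.98 and 15.94 at the lowest, median and highest male array. Amy2a5 was at 7.76, 15.61 and 8.12 on the female arrays, against 6.31, 14.34 and 15.77 on the male arrays. The groups overlapped throughout. The median difference, female minus male, was -1.15 with a median SE of 2.28, 23 members lower and 6 higher. Without BXD38 it was -4.38, without BXD18 0.437 and without BXD96 0.541, so its sign and size turned on which female array was left out.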

How the data were processed

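The members and gene lists were chosen with earlier results of these data known. Per the file headers, the authors deposited an unnormalized intensity for each probe on each array (the mean over its beads) and a detection p-value. A second deposited table holds the authors' processed values, which look like log2. The submitters' processing notes name the package lumi but no version. The flow cytometry traits were deposited by the authors as natural log values, per the series text. Its 4 percentage columns were not used.

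Background correction and quantile normalization of 34492 probes used neqc (offset 16) from limma 3.58.1 (R 4.3.3, with data.table at version 1.17.8). Among 231278 intensities over 500, the deposited detection p-value was at least 0.01 for 18836, so these p-values were smoothed along intensity, taking the median of 201 neighbouring probes. A probe was kept if its smoothed value was under 0.01 on 3 or more arrays, which left 17583. Symbols came from the platform annotation at GEO: 20256 probes carried a single one, 9 more than one and 14227 lacked one.

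Fits used lmFit and eBayes of limma and were tested on simulated data. Curves used isotonic regression from scikit-learn 1.9.0 (Python 3.11.15, pandas 2.3.3, numpy 2.4.6). Beyond the members, the genes named are the 15 highest and 5 lowest in r with the member mean and, from each list, those called and the 3 of widest range. Others were chosen after their values were seen. Strains served as replicates. With 1 RNA pool per strain, p-values measure the spread between strains, technical error included, and the number of arrays limits the precision.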

Additional observations from a re-analysis of the deposited data

How the results depend on the processing

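Under every alternative run, 0 members were called by limma for any trait or for sex. With only probes detected on every array, 6 members were tested, and 29 in the other settings. Members with an unadjusted p under 0.05 numbered 0 to 2 for LN MHC Med, 0 to 21 for LN T:B, 0 for LN CD4:CD8 and 0 to 3 for sex. For LN T:B the 21 came without the 2 farthest strains, against 1203 of all 17583 probes. With detection p-values as deposited, 8 members had one for LN T:B, against 2063 of 16507 probes. In both settings the members' share was above that of all probes. The 2 for LN MHC Med came with detection p-values as deposited (852 of all probes), and the 3 for sex without BXD38 (959). Members vary together, so these are not separate results. The median pairwise r of the members stayed between 0.938 and 0.952. The range of the member mean over arrays, 9.44 on the log2 scale, was 7.23 with detection p-values as deposited and 7.60 in the authors' table. The median member slope on LN T:B was 1.92 without the 2 farthest strains, against 1.19 with all, and ran from 0.769 to 1.92 over all alternatives. The 0.769 is the median of the 6 members with probes detected on every array. That on LN MHC Med ran from 0.627 to 1.11 and that on LN CD4:CD8 from -0.35 to 0.090. By sex, leaving out each female array in turn gave -4.38 to 0.541. The r of Reg2 with the other members was 0.588 with detection p-values as deposited and 0.665 in the authors' table. With detection p-values as deposited, the SD of the deviation was 0.166 for Klk1, 0.051 for Klk1b5 and 0.311 for Reg2. In the authors' table it was 0.251 for Klk1, 0.106 for Klk1b5, 0.400 for Reg2 and 0.165 for Amy2a5, and without background correction 0.236 for Klk1b5. For Ctrc it stayed between 1.06 and 1.34.

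Counts over all probes moved more. For LN T:B, 11 were called with detection p-values as deposited and 51 with median scaling. There were 0 in the authors' table, without a filter, in male arrays, with LN MHC Med as a covariate and without the 2 farthest strains, where 1203 to 3112 had an unadjusted p under 0.05 in limma. For LN MHC Med, adding LN T:B to the model left 0 called and 622 with an unadjusted p under 0.05. By sex, 35 were called with median scaling, and 1 to 161 when a female array was left out. The cause was not tested. The chip could not be used as a block because the column headers name none. No paired analysis was possible because each strain has 1 array. Readings of Ctrc by Casp9 and of Klk1 by Siglecg under other normalizations were added after seeing the data.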
